A study of Mus musculus with 12 samples.

Results

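Mitochondrial ribosomal proteins were examined as a family in the gastrocnemius muscle of mice that had received feces from sedentary or exercise-trained donors. The members were all transcript clusters, the probe sets that the array designs for 1 transcript locus each, that are annotated with a single gene symbol made of Mrpl or Mrps, a number and at most 1 further letter. This gave 77 genes in 85 transcript clusters, out of 19938 genes named alone on a transcript cluster and 28944 transcript clusters in all. By symbol, 48 genes in 53 transcript clusters belonged to the large subunit and 29 genes in 32 transcript clusters to the small subunit. Of the 77 genes, 69 had 1 transcript cluster and 8 had 2, and all 77 were found in the RefSeq gene table. Another transcript cluster named Mrpl53 together with Ccdc142 and was not counted.

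The mice were male, of the label strain Tsl;ICR[GF], raised germ-free and 11 weeks old. Recipients of feces from sedentary donors (RS, 6 mice) and recipients of feces from treadmill-trained donors (RT, 6 mice) were compared 1 week after the first gavage. Both groups were fed a high-fat diet and were fasted before the muscle was taken, and both were gavaged repeatedly with the donor suspension. Mice of a group shared cages and received the same fecal material, so the 6 mice of a group may not be independent, and cage and donor training cannot be told apart.

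The mitochondrial ribosome translates the few messenger RNAs that are made from mitochondrial DNA, which encode core subunits of the respiratory chain and of ATP synthase. Its RNAs come from the mitochondrial genome, whereas its proteins are encoded in the nucleus, made in the cytosol and imported. Some of these proteins have a counterpart in bacterial ribosomes, and others were added during the evolution of mitochondria. In muscle, the amount of this machinery is commonly discussed together with oxidative capacity and endurance training.

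Promoter windows, from 250 bases before to 50 bases after an annotated RNA start, were at hand for 68 of the 77 genes in 74 windows (RefSeq, build GRCm38.p6). The letters CCGGAAG, the core that ETS-type factors such as GABP (the nuclear respiratory factor NRF-2) bind, stood on either strand in 33.8% of the member windows and in 11.6% of 21262 windows of protein-coding genes. Of the 2 sequences that follow, both belong to members that were higher in RT and carry this core close to the start. They run 5′ to 3′ over the 60 bases before the start on the plus strand, with the core in capitals, at chr11:115403692-115403751 for Mrpl58 and at chr8:71464866-71464925 for Mrpl34.
Mrpl58: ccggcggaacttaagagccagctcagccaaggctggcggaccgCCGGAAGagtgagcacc
Mrpl34: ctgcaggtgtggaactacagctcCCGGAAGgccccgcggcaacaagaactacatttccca
The stretch in capitals began 17 bases before the start in Mrpl58 and 37 bases before it in Mrpl34. The last sequence shows how tightly some members are packed, because Mrps11 of the small subunit and Mrpl46 of the large subunit are transcribed away from each other from starts 42 bases apart. The 41 bases between both starts, at chr7:78783090-78783130, are given on the plus strand, on which Mrps11 is read, and hold no CCGGAAG.
Mrps11 and Mrpl46: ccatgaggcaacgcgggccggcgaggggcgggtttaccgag
The letters are a description of these windows and not evidence that a factor was bound there in this muscle.

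Little of the family differed between RT and RS. At p under 0.05 together with an adjusted p (Benjamini-Hochberg) under 0.1 in limma, 10 of the 85 transcript clusters were higher in RT, 3 were lower and 72 were not called. On the whole array, 11.9% of transcript clusters were called higher, 13.0% lower and 24.9% in either direction, so the 10 higher members (11.8%) stood at the background and the 13 called members (15.3%) below it. Among the 15293 transcript clusters within the members' range of mean log2 signal, from 4.10 to 8.65, 18.7% were called higher and 12.5% lower. At an unadjusted p under 0.05, 18 members were higher and 4 were lower. So were 4542 and 4881 of all 28944 transcript clusters, and 3681 and 2364 of the 15293 in that signal range.

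The changes were small and leaned towards RT. The log2 change, RT minus RS, ran from -0.43 to 0.39 over the members, was above 0 for 64 of the 85 and had a median of 0.10, beside a median of -0.01 over all transcript clusters and of 0.05 over those in the same signal range. It was above 0 for 13739 of all 28944 transcript clusters and for 8936 of the 15293 in the same signal range. The 95% interval of a member reached a median of 0.20 to either side of its estimate, and for 69 of the 72 members not called it lay within 0.5 of 0 on the log2 scale. Changes larger than this were thus outside the interval for most of the family. Only 1 member separated all 6 RT mice from all 6 RS mice, against 5.79% of all transcript clusters.

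**Figure D1:**
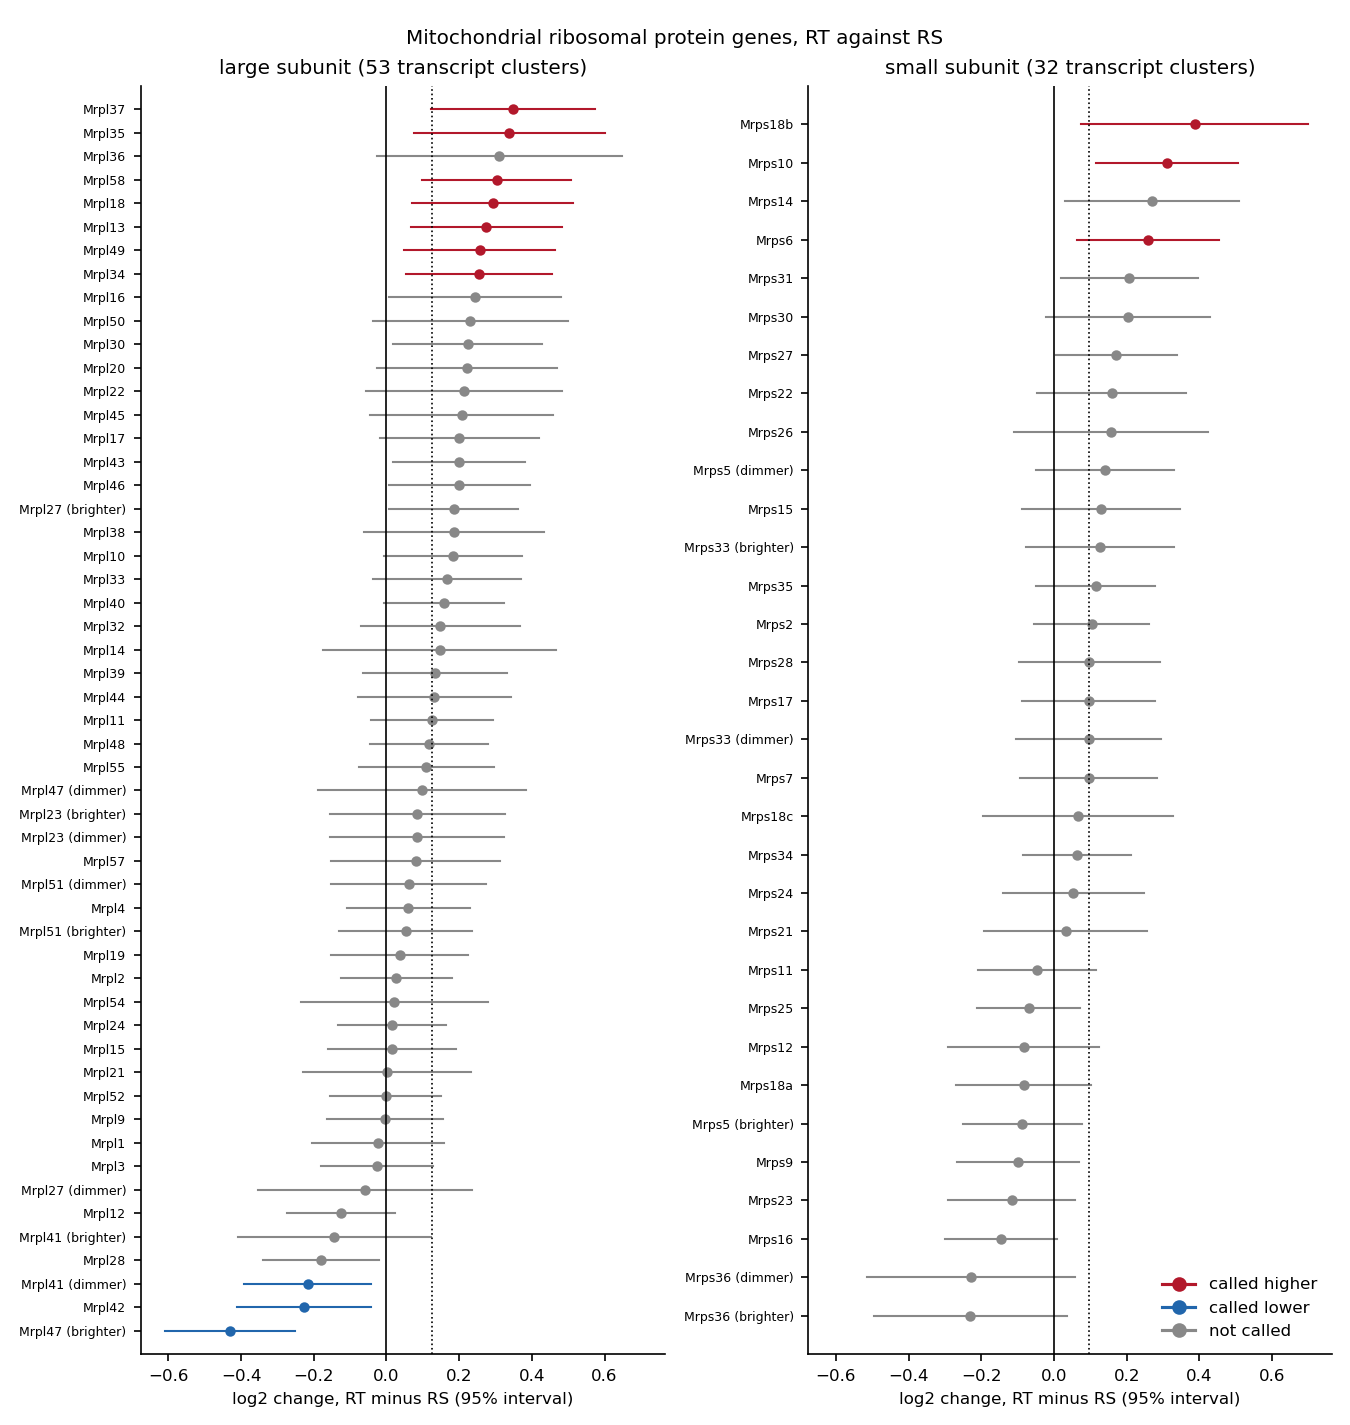
The log2 change, RT minus RS, is plotted for the 53 large subunit and 32 small subunit transcript clusters, each with its 95% interval from limma (n = 6 mice per group), and members called higher are red, called lower blue and not called gray. The dotted lines mark the medians of 0.12 (large) and 0.10 (small), most intervals cross 0, and the only interval wholly below -0.2 belongs to the brighter Mrpl47 transcript cluster.

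In the large subunit, 7 transcript clusters were higher in RT, 3 were lower and 43 were not called. Of all transcript clusters, 11.9% were higher and 13.0% lower. The largest rise was that of Mrpl37, a protein added in mitochondria without a bacterial counterpart. Its log2 signals were 7.27, 6.95, 6.92, 6.65, 6.88 and 6.59 in RS-1 to RS-6 and 7.29, 7.29, 7.17, 7.21, 7.02 and 7.37 in RT-1 to RT-6. All 6 RT mice were above the RS mean but RS-1 overlapped them, and the means were 6.88 ± 0.24 in RS and 7.22 ± 0.12 in RT (SD, n = 6). The change was 0.35 with an SE of 0.11 (limma adjusted p = 0.0379), which corresponds to 27.3% more signal.

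Mrpl58, a peptidyl-tRNA hydrolase that became a structural protein of the large subunit, had signals of 6.90, 6.83, 6.78, 6.41, 6.52 and 6.38 in RS-1 to RS-6. In RT-1 to RT-6 they were 6.99, 6.91, 6.91, 6.90, 6.92 and 7.01. The RT mice were almost level, within 0.11 of each other, and 5 of the 6 lay above every RS mouse, while the RS mice spread over 0.52. The change was 0.30 with an SE of 0.10 (limma adjusted p = 0.0445).

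Like those of Mrpl37 and Mrpl58, the other large subunit rises were each smaller than the range of the RS group. Mrpl35, which has a bacterial counterpart, ran from 6.77 over a median of 7.06 to 7.54 in RS and from 7.21 over 7.44 to 7.60 in RT, a change of 0.34 (limma adjusted p = 0.0737). Mrpl18, a protein of the central protuberance, the knob on which the large subunit meets the small one, ran from 8.17 over 8.52 to 8.75 in RS and from 8.58 over 8.76 to 8.99 in RT (0.29, limma adjusted p = 0.0676). In both genes 3 RS mice lay below the whole RT group and the other RS mice overlapped it. Mrpl13, whose bacterial counterpart enters early in assembly, had an RS range of 6.11 to 6.59 and an RT range of 6.48 to 6.84, with medians of 6.41 and 6.66 (0.28, limma adjusted p = 0.0659). Mrpl49, added in mitochondria, had an RS range of 5.63 to 6.13 and an RT range of 6.07 to 6.45, with medians of 6.00 and 6.14 (0.26, limma adjusted p = 0.0839). Mrpl34, which ranked after the 6 largest rises and was named after its values were seen, ran from 6.16 over 6.33 to 6.54 in RS and from 6.40 over 6.67 to 6.77 in RT (0.25, limma adjusted p = 0.0785). For each of these 3 genes, 4 RT mice were above the highest RS mouse.

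The 3 large subunit members that were lower in RT were Mrpl47, Mrpl42 and Mrpl41. Mrpl47 lies beside the exit through which the new protein leaves the ribosome, and it was measured by 2 transcript clusters. In the brighter one, annotated through a single cDNA clone, the signals were 5.97, 6.07, 5.84, 5.70, 6.06 and 5.92 in RS-1 to RS-6 and 5.67, 5.50, 5.51, 5.34, 5.43 and 5.52 in RT-1 to RT-6. Every RT mouse was below every RS mouse, and this was the only member without overlap between the groups. The change was -0.43 with an SE of 0.08 (limma adjusted p = 0.00461, 2-sided exact permutation p = 0.00216, the smallest that 6 mice against 6 allow). The dimmer transcript cluster, annotated through the RefSeq messenger RNA, did not show this decline. Its means were 5.59 ± 0.37 in RS and 5.69 ± 0.07 in RT (SD, n = 6), a change of 0.10 that was not called (limma adjusted p = 0.646). The low RS mean and wide RS spread there came from RS-4 at 4.90, while the other 5 RS mice ran from 5.51 to 5.90. The medians were almost level, at 5.695 in RS and 5.685 in RT. The decline was therefore seen in 1 of 2 probe sets for Mrpl47, and whether these read different transcripts was not tested.

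Mrpl42, which has no bacterial counterpart, ran from 7.60 over 7.83 to 8.02 in RS and from 7.35 over 7.63 to 7.69 in RT, and 5 RS mice were above the highest RT mouse. The change was -0.23 (limma adjusted p = 0.0849). Mrpl41, also added in mitochondria, was lower in its dimmer transcript cluster, from 5.11 over 5.24 to 5.42 in RS and from 4.93 over 5.00 to 5.20 in RT (-0.22, limma adjusted p = 0.0834). Its brighter transcript cluster changed by -0.14 and was not called (limma adjusted p = 0.447).

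**Figure D2:**
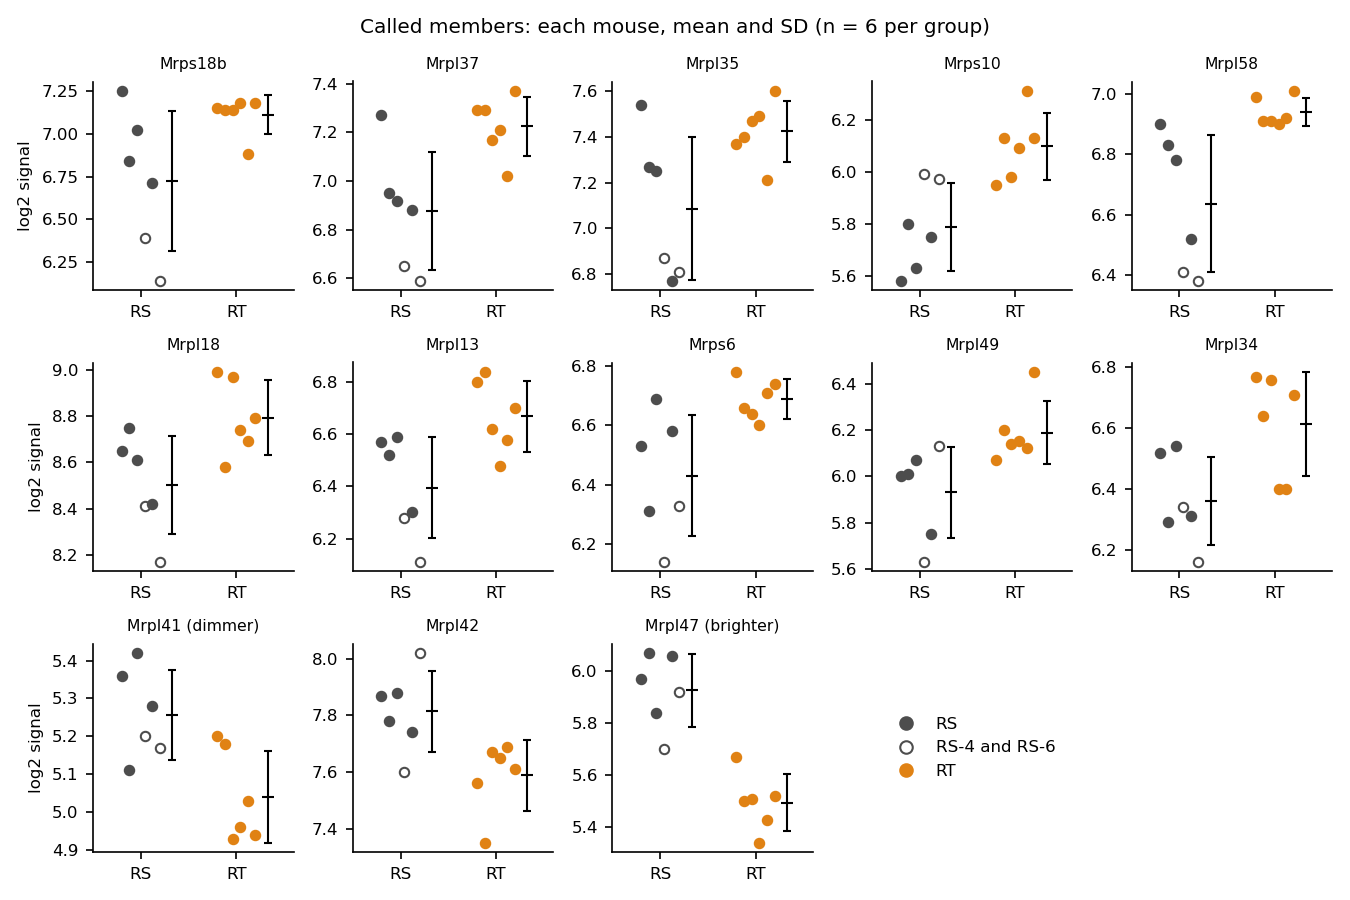
The log2 signal of each mouse is plotted for the 13 called members, with the mean and SD of each group beside the points (n = 6 per group) and open circles for RS-4 and RS-6. In Mrps18b, Mrpl37, Mrpl58, Mrpl18 and Mrpl13 the lowest point is RS-6, whereas in Mrps10 the open circles are the highest RS points, and in the brighter Mrpl47 transcript cluster the groups do not overlap.

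In the small subunit, 3 of 32 transcript clusters were higher in RT, none was lower and 29 were not called. Of all transcript clusters, 11.9% were higher and 13.0% lower. At an unadjusted p under 0.05, limma gave 6 small subunit members higher and none lower. The analysis of variance that the study's methods name called 3 of them higher and 1 lower, where it called 10.1% of all transcript clusters higher and 10.5% lower. Mrps10, the counterpart of a bacterial protein of the small subunit head, had signals of 5.58, 5.80, 5.63, 5.99, 5.75 and 5.97 in RS-1 to RS-6 and 5.95, 6.13, 5.98, 6.09, 6.31 and 6.13 in RT-1 to RT-6. Of the RT mice, 4 were above every RS mouse, and RS-4 and RS-6 were the highest mice of their group. The change was 0.31 with an SE of 0.09 (limma adjusted p = 0.0335).

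Mrps18b had the largest rise of the family, 0.39 with an SE of 0.15 (limma adjusted p = 0.0835), and also the widest RS group. Its signals were 7.25, 6.84, 7.02, 6.39, 6.71 and 6.14 in RS-1 to RS-6 and 7.15, 7.14, 7.14, 7.18, 6.88 and 7.18 in RT-1 to RT-6. No RT mouse was above RS-1, and 4 RS mice were below every RT mouse. Mrps6, whose bacterial counterpart sits on the platform of the small subunit, ran from 6.14 over 6.43 to 6.69 in RS and from 6.60 over 6.68 to 6.78 in RT (0.26, limma adjusted p = 0.0677).

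Mrps18b has 2 sister genes, which encode related proteins that occupy different places in the ribosome. Mrps18a, a protein of the large subunit in spite of its symbol, had means of 7.51 ± 0.16 in RS and 7.43 ± 0.11 in RT (SD, n = 6) and changed by -0.08 (limma adjusted p = 0.532). Mrps18c, of the small subunit, had means of 7.09 ± 0.31 in RS and 7.15 ± 0.13 in RT and changed by 0.07 (limma adjusted p = 0.739). The difference in change between the 3 sisters was not tested.

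Read by the place of the protein, each site held only 3 to 8 transcript clusters, too few to tell whether a site stood out. Of all transcript clusters, limma called 24.9% in either direction, and the analysis of variance called 10.1% higher and 10.5% lower. The stalk, which recruits translation factors, was represented by Mrpl10, Mrpl11 and Mrpl12, with changes of 0.18, 0.12 and -0.12, and limma called 0 of the 3, none at an unadjusted p under 0.05. The analysis of variance called Mrpl12 lower, and Mrpl12 had 4 RS mice above the highest RT mouse, with means of 8.01 ± 0.06 in RS and 7.88 ± 0.08 in RT (SD, n = 6). Around the exit of the tunnel, 1 of 8 transcript clusters was lower, which was that of Mrpl47. In the central protuberance, 1 of 8 was higher, which was Mrpl18. Near the peptidyl transferase center, where peptide bonds form, limma called 0 of 4, with 1 at an unadjusted p under 0.05, and the analysis of variance called none. Along the decoding center and the path of the messenger RNA, limma called 0 of 6, with none at an unadjusted p under 0.05, and the analysis of variance called none.

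Mrps12, a protein of the decoding center whose bacterial counterpart is known for streptomycin resistance, ranged from 6.09 to 6.63 in RS and from 6.12 to 6.57 in RT and changed by -0.08 (limma adjusted p = 0.581). Mrps30, which is built into the large subunit despite its symbol, ranged from 5.02 to 5.68 in RS and from 5.44 to 5.82 in RT and changed by 0.20 (limma adjusted p = 0.197). By origin, 7 of 52 transcript clusters with a bacterial counterpart were higher and 1 was lower (median change 0.10). Of 31 added in mitochondria, 3 were higher and 2 were lower (median change 0.13). Of all transcript clusters, 11.9% were higher and 13.0% lower, and the difference between both origins was not tested.

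Mrps36 carries the family symbol but is known as a subunit of the oxoglutarate dehydrogenase complex of the citric acid cycle. Both of its transcript clusters changed by -0.23. In the brighter one the RS signals were 6.56, 6.26, 6.74, 6.23, 6.43 and 5.77 and the RT signals were 6.08, 5.95, 6.10, 6.17, 6.15 and 6.16, so that 5 RS mice were above every RT mouse and RS-6 was below them all. It was not called with all 12 mice (limma adjusted p = 0.214). Without RS-4 and RS-6 the changes were -0.40 (limma adjusted p = 0.0248) for the brighter and -0.42 (limma adjusted p = 0.0202) for the dimmer transcript cluster, and both were called lower.

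Of the other genes with 2 transcript clusters, Mrpl27 and Mrps5 had changes of opposite sign. Mrpl27 changed by 0.18 in its brighter and by -0.06 in its dimmer transcript cluster, and Mrps5 by -0.09 and 0.14. The changes lay closer together in Mrpl23 (0.085 and 0.083), Mrpl51 (0.053 and 0.062) and Mrps33 (0.127 and 0.095). None of these was called, and the difference between probe sets of 1 gene was not tested. With the brightest transcript cluster of each gene alone, 10 of 77 genes were higher and 2 were lower, where 11.9% and 13.0% of all transcript clusters were.

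The lean towards RT moved with a few RS arrays. The mean log2 signal over all 85 members was 6.80, 6.69, 6.72, 6.50, 6.59 and 6.46 in RS-1 to RS-6 and 6.75, 6.73, 6.73, 6.65, 6.64 and 6.78 in RT-1 to RT-6. The highest mouse of all was thus an RS mouse, and the RS mice RS-4, RS-5 and RS-6 were the 3 lowest. The group means were 6.63 ± 0.13 in RS and 6.71 ± 0.06 in RT (SD, n = 6), a difference of 0.09, which became 0.01 without RS-4 and RS-6. As these were the lowest mice, leaving them out had to narrow the difference. For the large subunit the difference went from 0.10 to 0.02, and for the small subunit from 0.07 to 0.00.

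RS-6 was the lowest of the 12 mice in 44 of the 85 transcript clusters and RS-4 in 13, whereas RS-1 was the highest in 21. Over transcript clusters in the same signal range, RS-6 was the lowest in 22.6% and RS-4 in 11.3%. RS-4 and RS-6 also had the narrowest arrays, with an SD of log2 signal over all transcript clusters of 1.97 and 1.99 against 2.06 to 2.15 in the other 10, and both lay at one end of the first principal component. The RS group had the larger SD in 66 of the 85 members and in 69.8% of all transcript clusters.

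**Figure D3:**
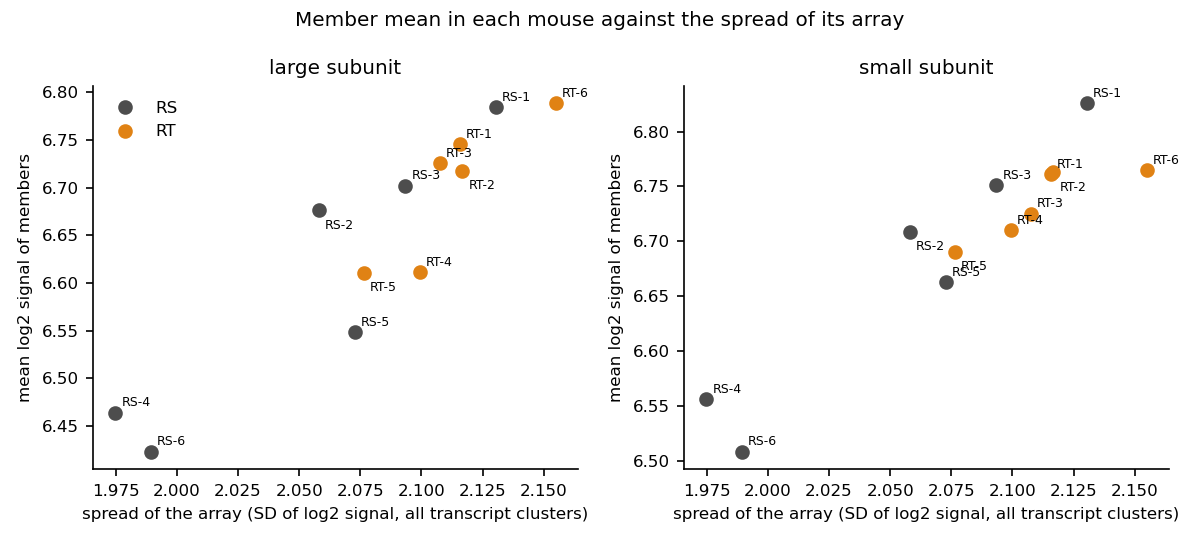
The mean log2 signal of the large and small subunit members in each mouse is plotted against the SD of log2 signal over all transcript clusters of its array. RS-4 and RS-6 lie apart at the lower left in both panels, RS-5 lies just below the RT mice, and RS-1, RS-2 and RS-3 have member means within or above the RT range in the large subunit (6.61 to 6.79) and in the small subunit (6.69 to 6.76).

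Without RS-4 and RS-6, 1 member was called higher and 3 were called lower, against 5.70% of all transcript clusters higher and 6.19% lower. Of the 13 called members, 2 were called in the same direction, which were Mrps10 (0.41, limma adjusted p = 0.0154) and the brighter Mrpl47 transcript cluster (-0.49, limma adjusted p = 0.00679), and the new calls were both transcript clusters of Mrps36. RS-4 and RS-6 were the highest RS mice in Mrps10 and the lowest in both Mrps36 transcript clusters. In the brighter Mrpl47 transcript cluster, RS-4 (5.70) and RS-6 (5.92) both lay below the RS mean of 5.93. Leaving out RS-4 and RS-6 therefore had to widen all these changes. When the SD of each array entered the model, 1 member was called higher and 3 lower (2.53% and 3.07% of all transcript clusters), and of the 13 the same 2 were called. Of the other rises, Mrpl37 changed by 0.22 (limma adjusted p = 0.18) and Mrps18b by 0.16 (limma adjusted p = 0.384) without RS-4 and RS-6. In both genes these were the lowest RS mice, so leaving them out had to shrink the rises.

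The scaling of the arrays changed the balance between rises and declines. After a further quantile normalization 1 member was higher and 10 were lower, where 9.62% and 9.53% of all transcript clusters were. After cyclic loess 1 was higher and 12 were lower, where 9.57% and 9.73% of all transcript clusters were. With arrays centered on their median 21 were higher and 1 was lower, where 20.3% and 8.34% of all transcript clusters were. The median change of the members was -0.01, -0.01 and 0.18 in these 3 settings. A direction for the family as a whole therefore could not be given from these arrays. The brighter Mrpl47 transcript cluster was lower in RT in all 24 alternatives, with changes from -0.51 to -0.36 and limma adjusted p from 0.00198 to 0.0189. Mrpl37 and Mrps10 kept their call in 22 of the 24 and Mrpl58 in 20, and the other 9 members in 9 to 12.

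**Figure D4:**
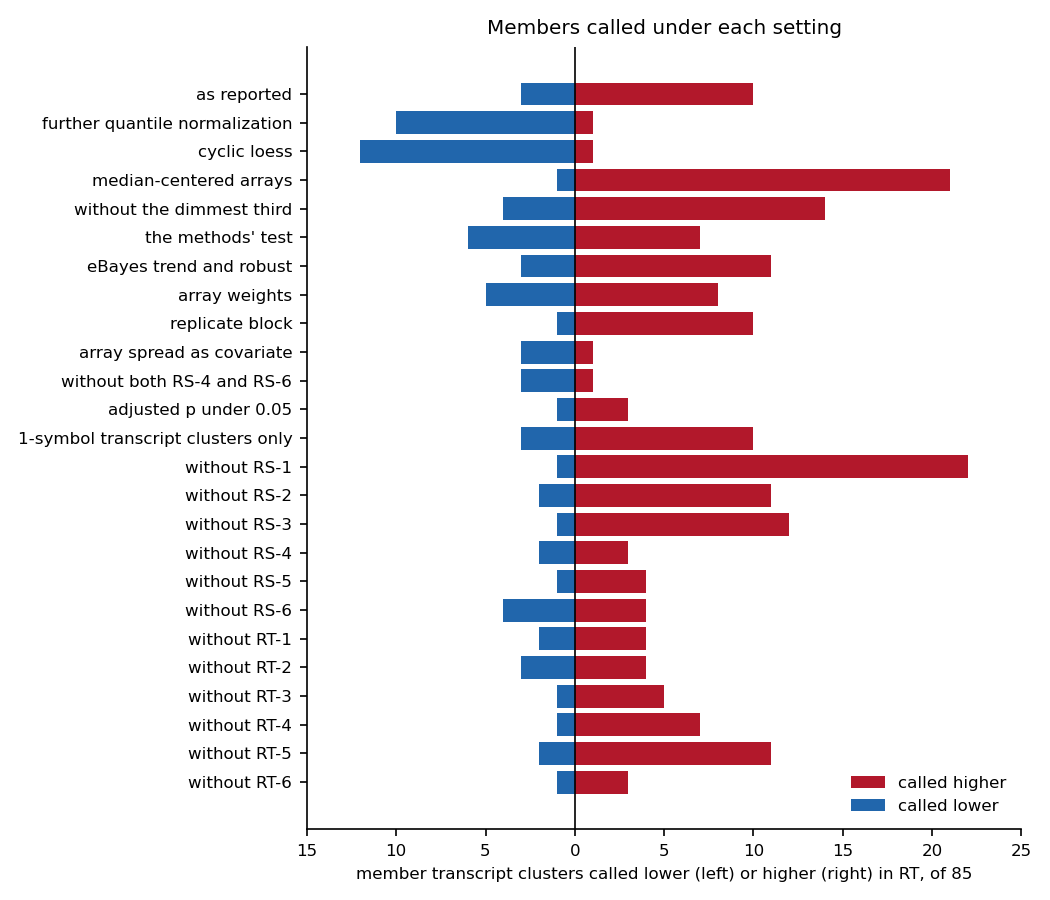
The bars count, of 85 member transcript clusters, those called higher (right, red) and lower (left, blue) in RT under each setting. The setting as reported gives 10 and 3, quantile normalization 1 and 10, median-centered arrays 21 and 1, and leaving out RS-4 and RS-6 together 1 and 3.

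Genes that work with the mitochondrial ribosome were counted in the same way. Of the 95 measured genes on 6 lists of mitochondrial gene expression, counted with 1 transcript cluster each, 11 were higher in RT and 1 was lower, with a median change of 0.10, where 11.9% and 13.0% of all transcript clusters were. The counts were 7 higher and 1 lower with cyclic loess (9.57% and 9.73% of all transcript clusters), 7 and 2 with quantile normalization (9.62% and 9.53%), and 31 and 0 with median-centered arrays (20.3% and 8.34%). With the SD of each array in the model they were 0 and 0 (2.53% and 3.07%), where limma gave 4 higher and 0 lower at an unadjusted p under 0.05. Of 28 assembly genes, 5 were higher and 1 was lower. Tfb1m, which methylates the RNA of the small subunit, was 5.28 ± 0.34 in RS and 5.79 ± 0.29 in RT (SD, n = 6), a change of 0.50 (limma adjusted p = 0.0386), and Noa1, a GTPase needed for the small subunit, changed by 0.37 (limma adjusted p = 0.0687). The lower gene was Mrm2, which methylates the RNA of the large subunit (-0.26, limma adjusted p = 0.0962).

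Of 19 genes for mitochondrial aminoacyl-tRNA synthetases and the related amidotransferase, 2 were higher. Gatc, a subunit of that amidotransferase, which completes glutaminyl-tRNA, was 6.85 ± 0.31 in RS and 7.38 ± 0.19 in RT (SD, n = 6), a change of 0.53 (limma adjusted p = 0.0159), and Iars2, for isoleucine, changed by 0.27 (limma adjusted p = 0.0942). Of 16 translation factors and partners, Oxa1l, which inserts new proteins into the inner membrane, changed by 0.31 (limma adjusted p = 0.075), and Lrpprc, which stabilizes mitochondrial messenger RNAs, by 0.25 (limma adjusted p = 0.063). Of 18 genes for transcription and RNA processing in mitochondria, Mterf2 (0.34, limma adjusted p = 0.09) and the elongation factor Tefm (0.26, limma adjusted p = 0.094) were higher. When RS-4 and RS-6 were left out, Gatc was the 1 gene of the 95 that was called (0.38, limma adjusted p = 0.0829), where 5.70% of all transcript clusters were called higher and 6.19% lower.

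Of 4 further proteins of the ribosome without the family symbol, Dap3, Chchd1, Ptcd3 and Gadd45gip1, limma called 0, none at an unadjusted p under 0.05, and the analysis of variance called none. Their changes ran from 0.01 to 0.18. Of 10 regulators of mitochondrial genes, limma and the analysis of variance called 0, and limma gave none at an unadjusted p under 0.05. Ppargc1a, which encodes the coactivator PGC-1α, had 9.25 in RS-5 and 9.17 in RS-6 against 6.90 to 7.78 in the other RS mice and 7.41 to 7.59 in RT, a change of -0.51 with an SE of 0.31 (limma adjusted p = 0.267).

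For comparison, 11 of 58 cytosolic ribosomal protein genes were higher and 4 were lower, with a median change of 0.11, where 11.9% and 13.0% of all transcript clusters were. These counts were 3 and 2 without RS-4 and RS-6 (5.70% and 6.19% of all transcript clusters), 4 and 6 with cyclic loess (9.57% and 9.73%) and 6 and 7 with quantile normalization (9.62% and 9.53%). They were 23 and 3 with median-centered arrays (20.3% and 8.34%), and 1 and 3 with the SD of each array in the model (2.53% and 3.07%). Of 35 genes listed by their Nduf symbols for respiratory complex I, a consumer of the ribosome's products, 3 were higher and 2 were lower, with a median of 0.07. The list includes Ndufa4 and Ndufa4l2, and whether each protein is part of complex I was not checked. The balance and the sign of the median turned without RS-4 and RS-6 (0 and 3, median -0.05), with cyclic loess (2 and 9, median -0.06), with quantile normalization (2 and 6, median -0.01) and with the SD of each array in the model (0 and 2, median -0.09). They did not turn with median-centered arrays (5 and 1, median 0.145), and the analysis of variance called 2 higher and 3 lower. The shares of all transcript clusters in these settings are those given for the cytosolic genes, and 10.1% and 10.5% for the analysis of variance. Of the messenger RNAs that the ribosome translates, COX2 and ND3 were looked at, 2 mitochondrial genes that were picked after their values were seen, each read from the brighter of its 2 transcript clusters. COX2, a subunit of cytochrome c oxidase, ran from 12.19 to 12.51 in RS and from 11.97 to 12.09 in RT, and ND3, a subunit of complex I, from 12.08 to 12.52 in RS and from 11.88 to 12.06 in RT. Neither had overlapping groups, and the changes were -0.29 (limma adjusted p = 0.0196) for COX2 and -0.33 (limma adjusted p = 0.0167) for ND3. Of all transcript clusters, 3.10% had every RT mouse below every RS mouse. The dimmer transcript clusters of COX2 and ND3 are not reported here. Without RS-4 and RS-6 both were still called lower, with changes of -0.26 and -0.30, and with the SD of each array in the model ND3 was called (-0.32) and COX2 was not (-0.26).

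Markers of other cell types differed between the groups as well. Of 11 fibroblast and matrix markers 10 were higher in RT (mean of the list 7.28 to 8.47 in RS, 8.44 to 8.79 in RT), as were 10 of 11 macrophage markers (4.74 to 5.33 and 5.47 to 5.88), 5 of 8 adipocyte markers (5.32 to 5.57 and 5.68 to 6.58) and 7 of 8 endothelial markers (6.30 to 6.82 and 6.88 to 7.24). Of 2 erythrocyte markers 1 was higher (4.49 to 4.96 and 4.95 to 5.45). Among the 5 adipocyte markers called was Slc2a4 (0.32, limma adjusted p = 0.0662), the gene of the glucose transporter GLUT4, which muscle fibers also make. Its means of 9.01 in RS and 9.33 in RT were the highest of the adipocyte list and entered the list mean. Whether its rise came from adipocytes or from fibers was not tested. Without RS-4 and RS-6 the fibroblast, macrophage, adipocyte and endothelial markers called higher numbered 8, 9, 3 and 4 (5.70% of all transcript clusters), and with the SD of each array in the model 4, 6, 1 and 2 (2.53%). Slc2a4 was not called in either of these settings. Of 10 muscle fiber markers limma and the analysis of variance called 0, with none at an unadjusted p under 0.05 in limma, and the list mean was 12.07 to 12.32 in RS and 12.23 to 12.30 in RT. Of 8 slow fiber markers both also called 0, none at an unadjusted p under 0.05, with list means of 8.36 to 10.12 in RS and 7.12 to 9.74 in RT. All 8 nevertheless had a change below 0, from -0.54 to -0.26 with a median of -0.42. RT-6 was the lowest mouse in each of the 8. The part of these cells in the changes of the members was not tested, and in bulk muscle fewer cells of a type and less RNA per cell cannot be told apart.

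The promoters of the members shared more than the ETS core. The letters AAGATGGC, the core of YY1 sites, stood on either strand in 16.2% of the member windows and in 3.05% of all windows. Commoner promoter words were closer to the level of all genes, with CCAAT in 39.2% and 38.2%, GGGCGG in 52.7% and 46.2%, the E-box CACGTG in 9.46% and 7.84%, and TATAAA in 6.76% and 12.6%. The member windows held a median of 21 CG pairs against 13. CCGGAAG and its reverse complement can overlap by the letters CCGG, and a window with both was counted once.

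Members with and without the ETS core had similar medians, a difference that was not tested. The 28 transcript clusters of genes with CCGGAAG in a window had a median change of 0.11 with 4 called, and the 48 without it had a median of 0.12 with 8 called. Of the 64 without AAGATGGC 8 were called, and of the 12 with it 4, against 24.9% of all transcript clusters. The 4 were Mrpl35, Mrpl37 and Mrpl49, which were higher, and Mrpl42, which was lower, and in all 4 the word lay after the RNA start.

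Of the 68 genes with a window, 24 (35.3%) had another protein-coding gene starting within 1000 bases on the opposite strand and running away from it, against 8.48% of all genes. For 1 of the 23 genes whose neighbor was measured, both genes were called higher. This was Mrpl49 (0.26) with Fau (0.27, limma adjusted p = 0.0522), which encodes a protein of the cytosolic small subunit and starts 192 bases away. In the pair shown above, Mrps11 changed by -0.05 and Mrpl46 by 0.20, and neither was called. Several neighbors also serve mitochondria. Sars2, the mitochondrial seryl-tRNA synthetase beside Mrps12, changed by 0.03, Twnk, the mitochondrial DNA helicase beside Mrpl43, by 0.10, and Ndufb5, a complex I subunit beside Mrpl47, by -0.03, all without a call. Of the 23 measured neighbors, 1 was higher and 2 were lower, where 11.9% and 13.0% of all transcript clusters were. The 2 lower neighbors were Eme1 beside Mrpl27 (-0.24, limma adjusted p = 0.063) and Ska3 beside Mrpl57 (-0.23, limma adjusted p = 0.0882).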

How the data were processed

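Total RNA from gastrocnemius muscle of 12 mice was hybridized to Affymetrix Mouse Gene 1.0 ST arrays. The authors normalized the arrays by robust multi-array averaging (named RMA in the processing notes, and SST-RMA in one place of the methods) and deposited log2 values to 2 decimals. Array values carry no read depth, and their number, 6 per group, limits the precision. RT and RS were compared with limma 3.58.1 (R 4.3.3) on all 28944 transcript clusters, using the lmFit and eBayes functions and Benjamini-Hochberg adjustment over all of them. The thresholds, p under 0.05 and adjusted p under 0.1, are those of the methods, whose one-way analysis of variance was an alternative. Single values were also compared by the 2-sided exact permutation test over all 924 splits of 6 mice against 6. Symbols came from the platform annotation, and each member was counted. Values were given for up to 6 largest rises and falls among called members of each subunit, 9 members chosen for their roles, and up to 2 called genes per direction of each other list. The members and lists were chosen with earlier results of these data known. Same-numbered mice did not deviate together (correlations from -0.24 to 0.107), so the mice were not paired. Promoter windows were searched on both strands with Python 3.11.15.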

Additional observations from a re-analysis of the deposited data

Results flagged for a closer look

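In 48 groups of 6 mice, over the members named with values, the gap between the most extreme mouse and its nearest neighbor was compared with the range of the group, a comparison that chance alone exceeds in about 1 in 20 groups. A single mouse stood apart in 3. For Mrpl49, RT-6 was the highest RT mouse at 6.45, while the other 5 ran from 6.07 to 6.20. For Mrps18b, RT-5 was the lowest RT mouse at 6.88, while the other 5 ran from 7.14 to 7.18. For Mrps18a, RS-1 was the highest RS mouse at 7.81, while the other 5 ran from 7.36 to 7.52.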

How the results depend on the processing

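Counts are given as higher and lower in the large subunit (7 and 3 as reported), then in the small subunit (3 and 0). They were 1 and 5, then 0 and 5, with quantile normalization, 1 and 6, then 0 and 6, with cyclic loess, and 15 and 1, then 6 and 0, with median-centered arrays. They were 9 and 4, then 5 and 0, without the dimmest 33.3% of transcript clusters (19.4% and 15.8% of those tested). The methods' analysis of variance gave 4 and 5, then 3 and 1 (10.1% and 10.5% of all transcript clusters). Array weights gave 6 and 3, then 2 and 2 (11.7% and 11.6%). The counts were 0 and 1, then 1 and 2, both with the array spread as covariate and without RS-4 and RS-6. At an adjusted p under 0.05 they were 2 and 1, then 1 and 0 (7.23% and 7.97% of all transcript clusters). The replicate block, in which the mice share only a number, gave 7 and 1, then 3 and 0 (9.93% and 11.0%). The moderated variance with trend and the restriction to 1-symbol transcript clusters moved no count by over 1.5 times. Leaving out each mouse in turn gave 2 to 16 and 1 to 3 in the large and 1 to 6 and 0 to 2 in the small subunit. Without RS-1, 22 members were higher (15.8% of all transcript clusters), against 3 without RS-4 (8.95%), 3 without RT-6 (8.15%) and 4 without RS-6 (8.30%). The median change of the small subunit (0.10) was -0.023 with quantile normalization, -0.044 with cyclic loess and -0.032 with the spread covariate, which also gave -0.0059 for the large subunit (0.12). Among named members not called, Mrpl11 turned to -0.011 and -0.012 with these normalizations, Mrps12 to 0.012 with the spread covariate, and Mrps18c to -0.058 with quantile normalization, -0.072 with cyclic loess, -0.0099 with array weights, -0.20 with the spread covariate and -0.13 without RS-4 and RS-6, and it ran from -0.019 to 0.13 when single mice were left out. The cause of these shifts was not tested. Signal over array background was not analysed here.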
